A study of Mus musculus with 6 samples.

Results

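The Rhox genes (reproductive homeobox on the X chromosome) were read in mouse embryonic stem (ES) cells that made CTCFL, the germ line paralog of the insulator protein CTCF. Members were all probe sets of the array whose annotated gene symbol, or 1 of several symbols, begins with Rhox. The rule found 8 of the 34760 probe sets in the table, which stand for 8 of the 19937 genes that carry a symbol of their own, namely Rhox1, Rhox6, Rhox8, Rhox9, Rhox10, Rhox11, Rhox12 and Rhox13, and 0 of the 8 carried several symbols. Rhox5, the founding member of the family, and the repeated Rhox2, Rhox3 and Rhox4 copies have no entry in the probe annotation used and were not analysed here.

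The study compared 3 cultures carrying a control vector with 3 carrying a vector that encodes FLAG-tagged mouse CTCFL. Both groups were male ES cells cloned from 46C, a line of 129P2/OlaHsd background with GFP inserted at the Sox1 locus, and both were kept in medium with 10% serum and under 1 µg/ml puromycin. The labels name neither the promoter of the vector nor how many clones each group holds, so p-values measure the spread between these arrays, which may be smaller than the spread between independent lines. The arrays were of the Affymetrix Mouse Gene 1.0 ST type, with 1 colour, and all values below are log2 signals, on which a step of 1 is a doubling.

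Rhox proteins are homeodomain transcription factors encoded by a cluster of tandem genes on the X chromosome. They are known from the testis, ovary, epididymis and placenta, and the cluster is a textbook case of genes kept silent by DNA methylation in cells outside these tissues. Rhox13 is known from male germ cells, Rhox10 from the establishment of spermatogonial stem cells, Rhox8 from the somatic support cells of the gonads, and Rhox6 and Rhox9, first described as Psx1 and Psx2, from the placenta.

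Ctcfl itself, which checks the labels, read 7.70, 7.85 and 7.89 with the control vector and 11.33, 11.22 and 11.24 with FLAG-CTCFL. Array medians over the whole table lay between 7.92 and 7.99, and FLAG-CTCFL replicate 2 had the narrowest spread of values (SD 1.41, against 1.44 to 1.47 in the other arrays). All 12 ES cell markers, among them Pou5f1, Sox2 and Nanog, lay above background in at least 1 group. Background was set at 7.63, the 95th percentile of the mean signal of 1208 probe sets for olfactory and vomeronasal receptor genes, and a probe set whose group mean lay at or below it is called dim.

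Both genes at the ends of the measured cluster rose, and Rhox6 rose slightly. Rhox13, the last member in gene order, was 4.60-fold higher in FLAG-CTCFL cells, and Rhox1, the first, was 1.98-fold higher. The rise of Rhox6 was 1.11-fold, a call that depended on the array set and the fit. The other 5 members, Rhox8, Rhox9, Rhox10, Rhox11 and Rhox12, did not pass the test, and 4 of them were dim in both groups. The threshold was an adjusted p of 0.05 in limma, a linear model with a variance shared between probe sets, with Benjamini-Hochberg adjustment over the 22961 probe sets that carry a symbol. In all, 3 of 8 members passed, against 28.4% of all probe sets tested. All 3 were higher, against 11.8% of all probe sets tested, and 0 were lower, against 16.6%. At an unadjusted p of 0.05 the limma counts were also 3 higher and 0 lower. At the adjusted threshold, but without a variance shared between probe sets, 2 were higher and 0 lower. The members' median difference was 0.06, and that of all probe sets tested 0.0055.

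**Figure D1:**
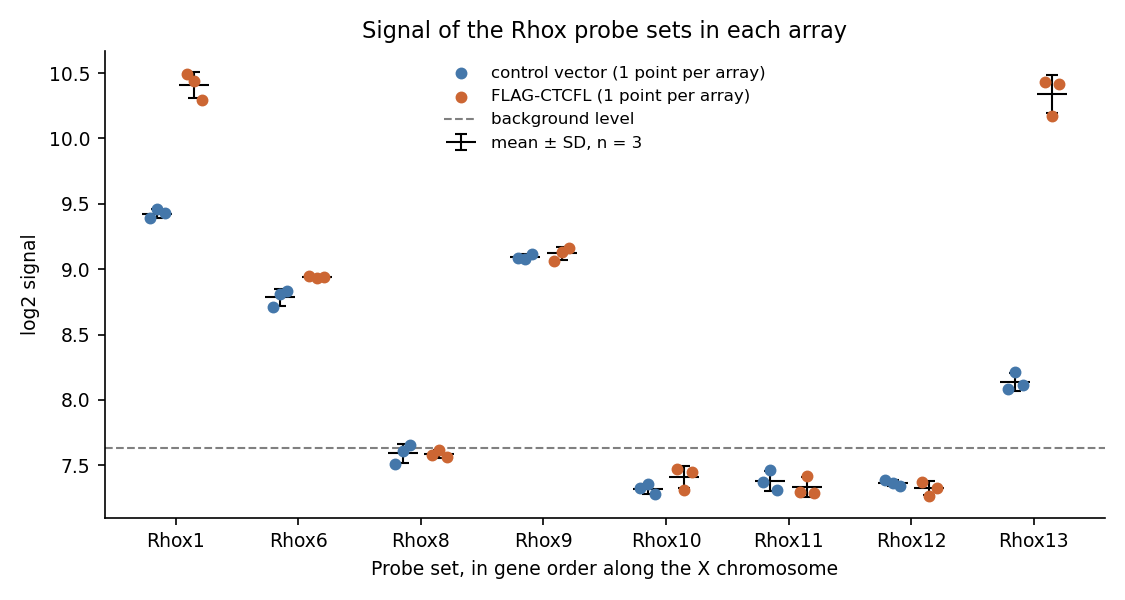
Log2 signal of the 8 Rhox probe sets in each array, in gene order, with 1 point per array and the mean ± SD of 3 arrays per group; the dashed line is the background level of 7.63. The groups are separate for Rhox1, Rhox6 and Rhox13, and the 2 groups of Rhox8, Rhox10, Rhox11 and Rhox12 lie with their means below the line.

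The stretches before the annotated starts of Rhox1 and Rhox13 are shown because these genes rose most, and that of Rhox12 because it lies between Rhox11 and Rhox13 and stayed dim. Each runs 5′ to 3′ over the 250 bases before the RefSeq start (GRCm38.p6), with CpG pairs, the sites of DNA methylation, in capitals.
Rhox1, chrX:37222259-37222508, minus strand: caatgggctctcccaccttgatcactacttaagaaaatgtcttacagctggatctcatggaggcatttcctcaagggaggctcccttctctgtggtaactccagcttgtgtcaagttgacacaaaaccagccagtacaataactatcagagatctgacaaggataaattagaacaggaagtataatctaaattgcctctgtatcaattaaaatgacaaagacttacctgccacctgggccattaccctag
Rhox12, chrX:38110908-38111157, minus strand: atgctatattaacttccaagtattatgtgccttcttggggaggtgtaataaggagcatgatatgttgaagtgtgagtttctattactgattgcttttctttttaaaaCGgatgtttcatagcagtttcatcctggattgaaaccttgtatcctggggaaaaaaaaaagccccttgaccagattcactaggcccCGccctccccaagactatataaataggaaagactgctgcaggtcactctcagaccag
Rhox13, chrX:38120590-38120839, plus strand: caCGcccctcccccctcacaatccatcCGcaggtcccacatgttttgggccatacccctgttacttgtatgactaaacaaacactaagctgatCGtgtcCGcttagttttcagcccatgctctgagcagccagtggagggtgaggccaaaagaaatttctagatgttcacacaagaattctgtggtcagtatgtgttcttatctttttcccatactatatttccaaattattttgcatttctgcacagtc
The Rhox1 window held 0 CpG pairs, that of Rhox12 held 2 and that of Rhox13 held 4. The windows of Rhox11 and Rhox10 held 5 and 8, and the median over 32851 RefSeq windows of the same length was 6. RefSeq windows were given for 5 of the 8 members, and none is shown for Rhox6, Rhox8 and Rhox9.

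The 4 short motifs below were searched on both strands of these windows, each on its own. The CTCF-type core AGNNGGC had 1 match each in Rhox1 (read as GCCACCT), Rhox10 and Rhox12 and 0 in Rhox11 and Rhox13, and 52.5% of all windows hold it. The E2F6-type motif TCCCGC, the E-box CACGTG and the ETS-type motif CCGGAA had 0 matches in the windows of these 5 genes, against 16.9%, 6.02% and 12.0% of all windows. A match is a description of the letters and not of binding, which these arrays do not measure.

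Rhox13 had control signals of 8.08, 8.22 and 8.11 and FLAG-CTCFL signals of 10.43, 10.17 and 10.42. Every FLAG-CTCFL array lay above every control array, and replicate 2 was the lowest of the FLAG-CTCFL arrays. The mean went from 8.14 ± 0.07 to 10.34 ± 0.15 (SD, n = 3), a rise of 2.20 ± 0.07 (SE; limma adjusted p = 9.54e-09). Among the 778 probe sets of single genes on the X chromosome it ranked 1 by size of rise, and among all 22961 it ranked 4.

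Rhox1 gave 9.39, 9.46 and 9.43 in controls against 10.49, 10.44 and 10.30 in FLAG-CTCFL cells. Its groups did not overlap either, and its control arrays already lay well above the background level. The rise was 0.98 ± 0.05 (SE, n = 3 per group; limma adjusted p = 3.47e-07), from a mean of 9.42 ± 0.03 to 10.41 ± 0.10 (SD). It ranked 7 on the X chromosome and 63 among all probe sets. The 95% interval of the rise was 0.86 to 1.10, below that of Rhox13, which was 2.05 to 2.36.

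Rhox6 stood at 8.71, 8.81 and 8.83 under the control vector and at 8.95, 8.93 and 8.94 under FLAG-CTCFL. All 3 FLAG-CTCFL arrays lay above the controls by a narrow margin. The difference was 0.16 ± 0.05 (SE, n = 3 per group; limma adjusted p = 0.0236; 95% interval 0.06 to 0.26). The call was lost without control replicate 1 (0.12, limma adjusted p = 0.109), without control replicate 2 (0.17, 0.0542), without FLAG-CTCFL replicate 3 (0.16, 0.0720) and after subtraction of array medians (0.13, 0.0766).

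Rhox9, the other member known from the placenta, read 9.09, 9.08 and 9.12 with the control vector and 9.07, 9.13 and 9.16 with FLAG-CTCFL. The groups overlapped although both lay above background, and the difference was 0.03 ± 0.04 (SE, n = 3 per group; limma adjusted p = 0.734). Its 95% interval, -0.07 to 0.12, leaves room for a change of up to 1.09-fold. Rhox6 and Rhox9 are close paralogs, and whether their probes share signal was not tested.

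Rhox10 had control signals of 7.32, 7.35 and 7.28 and FLAG-CTCFL signals of 7.47, 7.31 and 7.45, so that FLAG-CTCFL replicate 2 lay among the controls and the other two above them. The difference was 0.09 ± 0.05 (SE, n = 3 per group; limma adjusted p = 0.235). It passed without FLAG-CTCFL replicate 2 (0.14, limma adjusted p = 0.0321) and with array weights (0.12, 0.0108), and all 6 arrays lay below the background level.

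Rhox8, Rhox11 and Rhox12 were dim with overlapping groups. Rhox8 ranged from 7.51 to 7.66 in the control arrays and from 7.56 to 7.62 in the FLAG-CTCFL arrays. Rhox11 ranged from 7.31 to 7.46 and from 7.29 to 7.42, and Rhox12 from 7.34 to 7.39 and from 7.27 to 7.37. Their differences were -0.0044, -0.05 and -0.04, with 95% intervals of -0.11 to 0.10, -0.17 to 0.07 and -0.14 to 0.06. A dim probe set gives only an upper bound on its transcript, so a change below background would not be seen. Of the 6425 probe sets that were dim in both groups, 3.47% passed the test.

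**Figure D2:**
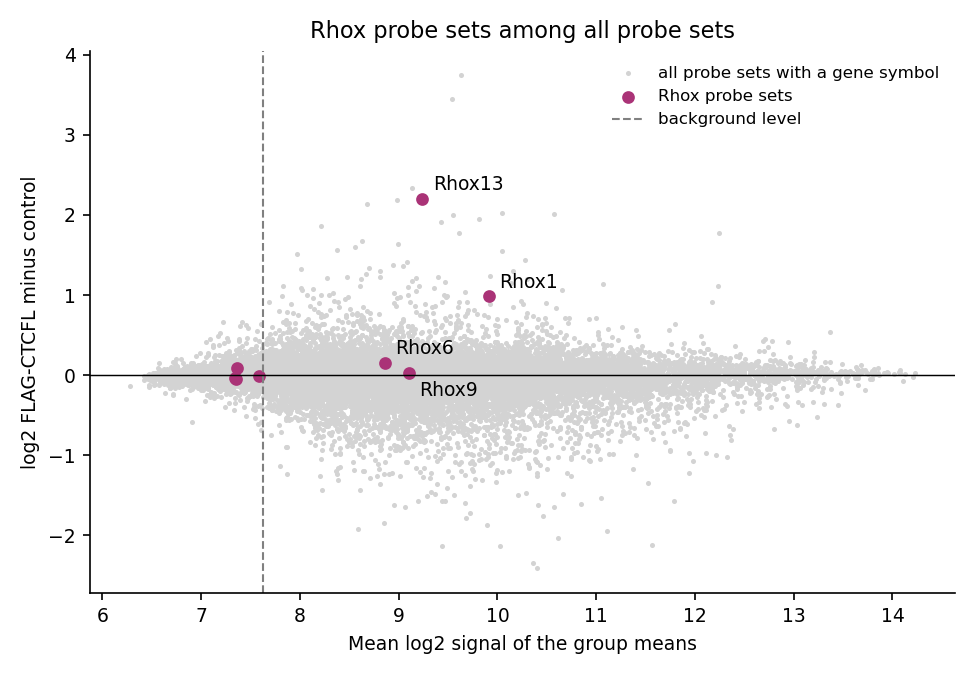
Difference between groups (log2 FLAG-CTCFL minus control) against the mean of the 2 group means (log2 signal) for 22961 probe sets, with the 8 Rhox probe sets coloured and the background level dashed. Rhox13 (2.20) and Rhox1 (0.98) lie above the bulk of the probe sets, Rhox6 and Rhox9 lie within it, and the other 4 lie at or below the background level near 0.

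The largest rises stood at opposite ends of the measured cluster, and 1 of the 30 nearest measured genes outside it rose. The groups of all FLAG-CTCFL arrays and all control arrays were fully separate, with FLAG-CTCFL above, for 3 of 8 members, against 18.3% of all probe sets, and with FLAG-CTCFL below for 0 of 8, against 21.9%. Between Rhox9 and Rhox10 lie Btg1b and Btg1c, copies of an antiproliferation gene, which were dim and did not pass (-0.01 and 0.08). For these 2 genes limma called 0 at an unadjusted p of 0.05, and 0 passed with array weights or without a shared variance.

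Of the 15 measured genes before Rhox1, 1 was higher and 2 lower, with a median of 0.0050. Gm9, next to Rhox1, gave 7.42, 7.51 and 7.59 in controls against 7.63, 7.73 and 7.57 in FLAG-CTCFL cells, overlapping between groups (0.14, limma adjusted p = 0.112). Ndufa1, a subunit of respiratory complex I, rose by 0.19 (limma adjusted p = 0.0271), a call lost after subtraction of array medians and in the absence of replicate 2 or 3 of the controls, or 1 or 3 of the FLAG-CTCFL arrays, and the mitochondrial carrier gene Slc25a43 (-0.36) and C330007P06Rik (-0.41) fell. Of the 15 after Rhox13, 0 were higher and 1 lower, with a median of 0.02, and 0 were higher at an unadjusted p of 0.05. Zbtb33, next to Rhox13 and the gene of the methyl-CpG-binding protein Kaiso, differed by -0.08 (limma adjusted p = 0.240), and Lamp2, a lysosomal membrane protein gene, fell by 0.38. Tenm1 (-0.11) and the cohesin subunit gene Stag2 (0.12) came next by p and did not pass, though both did after quantile normalization and with array weights, and Stag2 also without FLAG-CTCFL replicate 2. With array weights 2 of the genes before Rhox1 and 1 of those after Rhox13 were higher, and without FLAG-CTCFL replicate 2 they were 1 and 2. On the X chromosome as a whole, 9.25% of probe sets were higher and 30.6% lower, and 2.44% passed with a rise of at least 1.5-fold, against 0.976% of all probe sets. Rhox13 and Rhox1 are 2 of the 19 X-linked probe sets in that class.

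**Figure D3:**
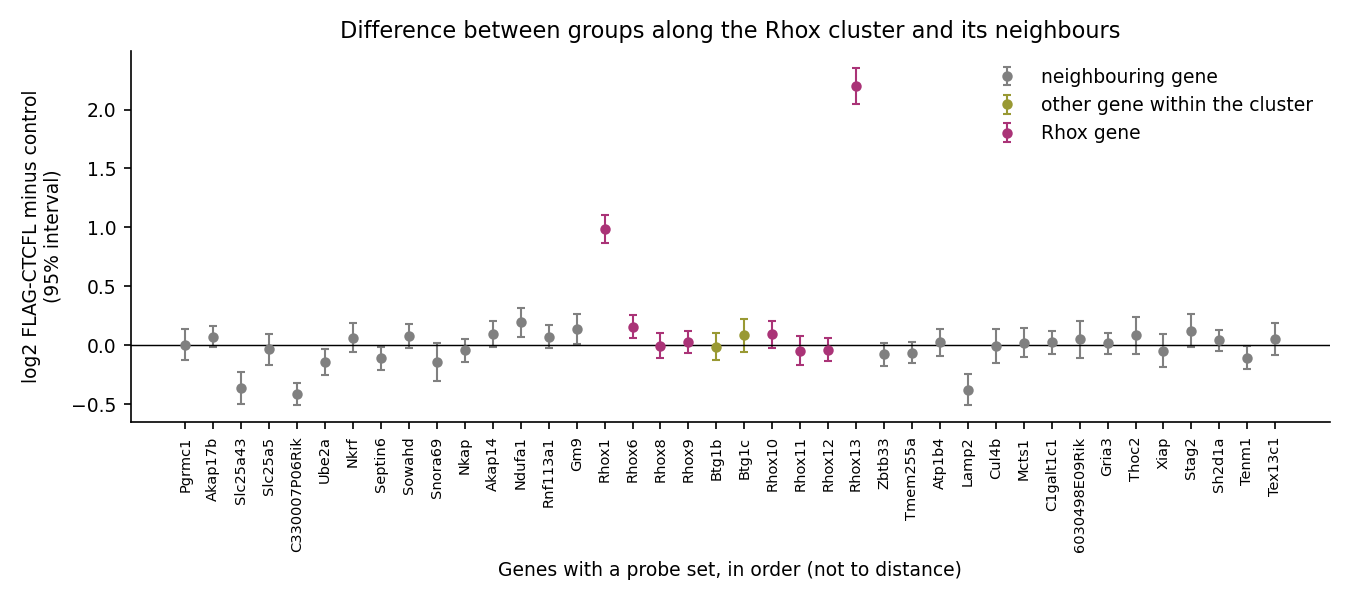
Difference between groups (log2 FLAG-CTCFL minus control) with its 95% interval for each gene with a probe set, from 15 genes before Rhox1 to 15 after Rhox13, in gene order and not to distance. Rhox1 and Rhox13 stand at the ends of the measured cluster at 0.98 and 2.20, and the genes between and beside them lie between -0.41 and 0.19.

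Genes with the most similar profile were taken by the root mean square distance over the 6 arrays, each gene centred on its control mean. For Rhox13 the nearest were Ct55, a cancer-testis gene of the X chromosome (distance 0.05, difference 2.19), Scml2, an X-linked Polycomb-type gene of the male germ line (0.15 and 2.001), and Stra8, a gene of meiotic entry on chromosome 6 (0.20 and 2.34). For Rhox1 they were 4930591A17Rik (0.05 and 1.02), Aard (0.07 and 0.98) and Cntfr, a receptor subunit for ciliary neurotrophic factor (0.07 and 0.91), on chromosomes 2, 15 and 4. These distances describe likeness in the size of the difference and in single arrays, and with 2 groups they carry no test.

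Other germ line genes and families listed as X-linked were read beside the cluster. Of 45 listed, 24 were measured, 1 of which (Mageb3) is placed on chromosome 2 by the gene table, and 10 were higher and 1 lower, with a median of 0.10. Higher and lower shares were 11.8% and 16.6% over all probe sets, and 9.25% and 30.6% on the X chromosome. In both groups 11 of the 24 were dim. Ct55 stood at 7.89, 7.92 and 7.85 under the control vector and at 10.12, 10.00 and 10.12 under FLAG-CTCFL. Scml2, Nxf3, of the mRNA export factor family (1.78), Tex16 (0.79), the deubiquitinase gene Usp26 (0.64), Taf7l, a germ cell paralog of a TFIID subunit (0.60), Xlr (0.45) and Magea4 (0.29) rose as well, and Tex11, a meiotic recombination gene, fell by 0.26. Xlr and Tex16 were dim in the control arrays, so their rises are lower bounds, and Magea5 and Tex13b, which also passed as higher, were dim in both groups. Tex13b did not pass without any 1 of the 3 control arrays or FLAG-CTCFL replicate 3. The other 13 did not pass, among them Mageb4 (0.14), Tktl1 (0.0082) and Fthl17a (0.07). With genes under the median signal left out, 6 were higher and 1 lower. The largest rises of this list were known from earlier work on these data when it was written.

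Homeobox genes outside the cluster did not move as 1 class. Of 4 X-linked ones, 3 were measured, and Esx1, known from the placenta and male germ cells, rose. It read 7.73, 7.79 and 7.85 with the control vector and 8.07, 8.25 and 8.23 with FLAG-CTCFL, a difference of 0.39 ± 0.06 (SE, n = 3 per group; limma adjusted p = 0.000406). Pou3f4 (0.04) and Cdx4 (-0.04) did not pass. Of 17 homeobox genes of the egg, early embryo or germ cells, 11 were measured, with 1 higher and 2 lower and a median of -0.0069. The shares over all probe sets were 11.8% higher and 16.6% lower. Otx2 rose (0.32), and Nanog (-0.62) and Obox6 (-1.23), of the oocyte-specific homeobox family, fell. Obox6 went from 8.49 ± 0.10 to 7.26 ± 0.07 (SD, n = 3), which is dim, so its fall is a lower bound.

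Another list held genes of DNA methylation, histone H3 lysine 9 methylation, linker histones and the E2F6 repressor complex. Several of them are known to keep the cluster or other germ line genes silent. Falls outnumbered rises in the list, as they did over all probe sets. Of 24 measured, 2 were higher and 7 lower, with a median of -0.10, against a median of 0.0055 and shares of 11.8% and 16.6% over all probe sets. Of the 24, 23 lay above background in at least 1 group. With probe sets under the median signal left out, 2 of 23 were higher and 8 lower, with a median of -0.10. Of the 11481 probe sets in that fit, 47.3% passed in either direction, 2102 higher and 3330 lower, so falls outnumbered rises there too. Whether the list differs from probe sets of like signal was not tested. Dnmt3a, a de novo DNA methyltransferase, had control signals of 9.85, 9.95 and 9.81 and FLAG-CTCFL signals of 9.41, 9.35 and 9.28, a fall of 0.53 ± 0.05 (SE, n = 3 per group; limma adjusted p = 2.44e-05). H1f2, a linker histone (-0.35), Mga (-0.26), Ehmt2, an H3 lysine 9 methyltransferase (-0.22), and Uhrf1, a cofactor of Dnmt1 (-0.21), fell too, and so did Tet1 (-0.24) and Tet2 (-0.21), which act against DNA methylation. The call of Tet2 was lost without control replicate 1 or 2. Dnmt3l, the catalytically inactive partner of the de novo enzymes (0.40), and E2f6 (0.28) rose. Dnmt1 (0.13), Dnmt3b (-0.14), Hells (-0.14) and Setdb1 (-0.17) did not pass. The counts were 5 higher and 7 lower after quantile normalization, 6 and 12 with array weights, and 0 and 3 without a shared variance. They were 2 and 12 without FLAG-CTCFL replicate 1, where Dnmt3b, Hells and Setdb1 passed, and 4 and 7 without FLAG-CTCFL replicate 2, where Dnmt1 passed.

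Transcription factors known from the Rhox5 promoters moved both ways, with 2 of 8 measured higher and 2 lower, against 11.8% and 16.6% of all probe sets. All 8 lay above background in at least 1 group. In the fit without probe sets under the median signal, 47.3% of all probe sets passed in either direction. Elf1 (-0.66) and Ets2 (-0.60), both of the ETS family, fell, and Gabpb2 (0.20) and Gabpb1 (0.15), beta subunits of the ETS factor GABP, rose, both with calls lost after subtraction of array medians and in the absence of replicate 1 or 3 of the controls, or 3 of the FLAG-CTCFL arrays. The call of Gabpb1 was also lost without control replicate 2 or FLAG-CTCFL replicate 1. Of 4 genes known as RHOX5 targets in Sertoli cells, Unc5c (-0.0087), Ins2 (0.05), Adipoq (-0.0056) and Retn (0.04), limma called 0, also at an unadjusted p of 0.05 and with array weights, and Unc5c and Adipoq were dim in both groups. Ins2 was dim in the control arrays, and the group means of Retn, 7.633 and 7.676, lay just above the background of 7.629. At such signals a lack of calls says little about the 4 transcripts.

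**Figure D4:**
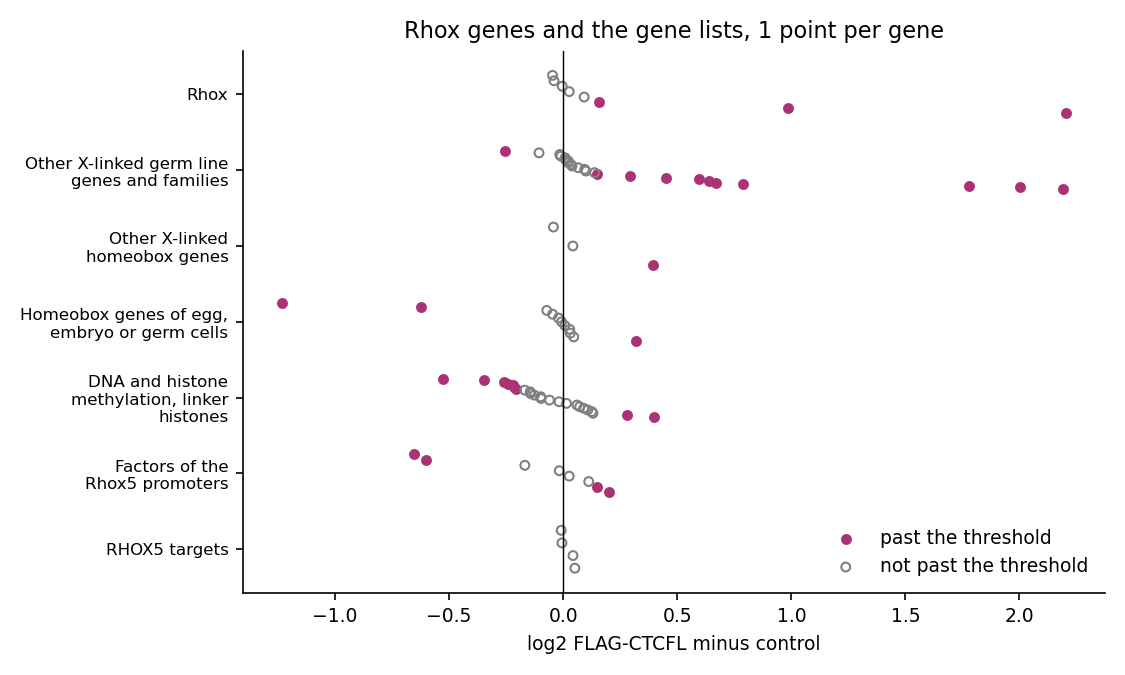
Difference between groups (log2 FLAG-CTCFL minus control) for the 8 Rhox genes and the genes of 6 lists, with 1 point per gene, filled where it passed the threshold. The rises of the Rhox family and of the other X-linked germ line genes reach 2.20 and 2.19, and the list of DNA and histone methylation genes runs from -0.53 to 0.40.

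Markers of cell types in which Rhox genes are known were read beside these results, as the mean log2 signal of each list per array. In bulk RNA, more cells of a type and more RNA per cell cannot be told apart. Over all probe sets, 11.8% were higher and 16.6% lower. The 11 measured trophoblast markers ranged from 8.17 to 8.19 in the control arrays and from 8.42 to 8.50 in the FLAG-CTCFL arrays, with 5 higher and 1 lower, and Elf5, Tpbpa and Plac1 were dim in both groups. Krt8 (1.15) and Krt18 (1.04) rose most, ahead of Eomes (0.61), Gata3 (0.33) and Cdx2 (0.30), which was dim in the control arrays. Tfap2c (-0.73) fell, 5 markers did not pass, and the median difference of the list was 0.11. The 12 germ cell markers ranged from 9.10 to 9.18 and from 9.13 to 9.21, with 3 higher and 4 lower. Their near-level mean held changes both ways. Stra8 (2.34), Gtsf1 (1.12) and Ddx4 (0.28) rose, and Sycp3 (-1.21), Prdm1 (-0.98), Tfap2c (-0.73) and Kit (-0.45) fell. The 12 markers of primitive or parietal endoderm ranged from 8.35 to 8.36 and from 8.36 to 8.39, with 2 higher and 2 lower. The 10 Sertoli cell markers ranged from 8.14 to 8.18 and from 8.03 to 8.10, with 0 higher, also at an unadjusted p of 0.05, and 1 lower in limma. The 10 fibroblast markers ranged from 8.73 to 8.77 and from 8.70 to 8.76, with 1 higher and 1 lower, and with 0 higher without any 1 control array or FLAG-CTCFL replicate 2 or 3. The 12 endoderm markers were 1 higher and 1 lower without control replicate 1 or FLAG-CTCFL replicate 3, and 3 and 2 without FLAG-CTCFL replicate 2. The ES cell markers stood at 12.19 in each control array and ranged from 11.84 to 12.00 in the FLAG-CTCFL arrays, with 1 higher and 7 lower. The part of any of these cell types in the rises of Rhox13, Rhox1 and Rhox6 was not tested.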

How the data were processed

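Array signals were taken as deposited: 1 log2 value per probe set and array, made by the authors, and the background correction, summarisation and normalization behind it are not stated in the labels. The log2 scale of the deposited values is inferred from their lowest (5.73) and highest (14.56) value. Labelling used 200 ng of total RNA, per the labels' protocols. The platform annotation gave a symbol to 22961 of 34760 probe sets, 1321 of them several, and Entrez IDs were used to take current symbols from the gene table of GRCm38.p6. The test was limma 3.58.1, run in R 4.3.3 on 3 arrays per group (group as the only term, two-sided) over these 22961 without a filter on dim probe sets, so that rows with several symbols stayed in. For lists and neighbours the probe set with the highest mean stood for a gene. Members and lists were chosen with earlier results of these data known. Named genes were all members, list genes and neighbours past the threshold (up to 3 with the smallest p where fewer passed), and the 3 nearest profiles of members changed at least 1.5-fold; other genes that did not pass were named as examples after their values were seen. The fit was tested on simulated data with 200 changed probe sets among 22961. It recovered 78.8% of changes of 0.25 and 100% of 0.5 or 1, and 7.92% of its calls were false. The simulated noise was independent between arrays, and far fewer probe sets changed than the 6524 called in the data. These rates may therefore not hold for the real arrays. Figures used Python 3.11.15 and matplotlib 3.10.9. Arrays with the same replicate number did not deviate together (r of 0.15, -0.19 and -0.04), so the numbers were not treated as pairs. Between unlike numbers r ran from -0.35 (control 3 with FLAG-CTCFL 1) to 0.34 (control 3 with FLAG-CTCFL 2). The source of these shared deviations was not tested.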

Additional observations from a re-analysis of the deposited data

How the results depend on the processing

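The 18 alternatives changed the scaling, the filter, the set of probe sets, the variance model, the threshold and the arrays used. Rhox13 (2.16 to 2.29) and Rhox1 (0.89 to 1.04) passed in all 18, and the count of Rhox probe sets higher was 2 to 4 and lower 0. Rhox6 did not pass after subtraction of array medians (0.13), over all probe sets of the table (0.16, limma adjusted p = 0.0527), without a shared variance (0.16, adjusted p = 0.0667 in a linear model per probe set) or with a minimum of 1.5-fold (0.16), and with 1 array left out it was 0.12 to 0.18. Rhox8, near 0 throughout, changed sign with 1 array left out (-0.045 to 0.028). Of all probe sets 6524 passed in the main setting, 10170 with array weights, 4209 without a shared variance and 818 with a minimum of 1.5-fold. Of the 105 list and neighbour genes 32 passed, and 52, 21 and 11 under the same alternatives; the cause was not tested, apart from the stricter minimum. With the replicate block 6187 probe sets passed, and the Rhox calls were 3 higher and 0 lower. Signal near background limits what can be said of Rhox8, Rhox10, Rhox11 and Rhox12. The background correction and any batch of the scans were not tested here.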
